A study of Homo sapiens with 15 samples.

Results

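The transcripts described here are 6 ligands of the EGFR family (AREG, EREG, TGFA, HBEGF, BTC and NRG1) and ADAM10 and ADAM17, the proteases that release such ligands from the cell surface. They were chosen by name, with earlier results of these data known, and all 8 were found among the 61248 loci of the expression table. All 8 also passed the filter on low values, which kept 14999 loci. The RNA came from NCI-H1975, an established line of human non-small cell lung cancer whose growth depends on a mutated EGFR. There were 3 libraries of each of 5 groups: control cells, cells given almonertinib (an inhibitor of the EGFR kinase), cells given EGF (a ligand of the receptor), siNC cells, read here as cells with a non-targeting control siRNA, and siEGFR cells, labelled as an EGFR knockdown. Every group thus carries the mutated receptor of this line, and the labels give neither dose, duration, serum, transfection nor clone. They also do not say whether the 3 libraries of a group came from separate cultures. The p-values set differences of group means against the spread of libraries within groups, and that spread may be technical. In bulk RNA, fewer cells that express a transcript and less of it per cell cannot be told apart.

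Ligands of this family are made as membrane-anchored precursors. ADAM17 is the main protease that frees AREG, EREG, TGFA and HBEGF, and ADAM10 the main one for BTC and EGF, after which the soluble ligand can bind receptors on the same or a neighbouring cell. AREG and TGFA bind EGFR. EREG, HBEGF and BTC bind EGFR and ERBB4, and NRG1 binds ERBB3 and ERBB4, which signal best when paired with ERBB2. Several of the ligand genes are themselves switched on by EGFR signalling through ERK, a loop known as autoinduction in epithelial cells. The transcript says nothing of how much ligand was shed.

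Read totals recovered from the values ranged from 18009903 to 34908302 per library. Levels are in FPKM (fragments scaled to gene length and library size), as mean ± SD with n = 3. Changes are differences of log2(FPKM + 1) ± SE. They were tested with limma and adjusted over all tested loci by the Benjamini-Hochberg method, and rose or fell means adjusted p under 0.05. Because 1 is added, changes of transcripts near 1 FPKM understate the ratio of the levels, so levels are given as a percentage of control or siNC as well. As a check of the siRNA, EGFR was at 49.4, 49.4 and 49.8 FPKM in siNC and at 29.9, 28.6 and 28.9 FPKM in siEGFR. The siEGFR mean was thus 58.8% of siNC but 120% of control, where EGFR was at 24.4 ± 3.17 FPKM. Lower EGFR in siEGFR therefore holds only against siNC. Lung epithelial markers were present, with 7 to 9 of 10 at 1 FPKM or more in every library of a group and a summed level of 929.8 to 1161 FPKM. The lists for other cell types were mixed. Of 5 fibroblast genes COL1A2, COL1A1 and PDGFRB were expressed (up to 361, 14.5 and 11.9 FPKM), while DCN and LUM reached at most 0.0039 and 0.07 FPKM. Of 5 leukocyte genes CD14 reached 40.9 FPKM, while PTPRC reached at most 0.06 FPKM and MS4A1 was listed at 0 in all 15 libraries. Of 4 endothelial genes PECAM1 and CDH5 had control means of 1.21 and 1.84 FPKM and siNC means of 0.39 and 0.07 FPKM. VWF and KDR reached at most 0.18 and 0.45 FPKM.

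These markers moved with the treatments as well, and their part in the ligand results was not tested. With almonertinib 2 of 10 epithelial genes rose and 3 fell, against 12.1% and 18.0% of all loci. Of 3 tested fibroblast genes 1 rose, COL1A1 (0.51), and of 2 tested endothelial genes 1 fell. With EGF 4 epithelial genes fell, among them CDH1 (-1.09), and so did all 3 tested fibroblast genes (COL1A2 from 328 ± 6.67 to 195 ± 11.4 FPKM) and CDH5 (-1.05). Of all loci 27.3% fell and 22.0% rose with EGF. In siNC 7 epithelial genes were higher than in control and 2 lower, against 34.4% and 31.6% of all loci. The keratin KRT7 was at 303 ± 12.2 FPKM against 56.4 ± 12.4 FPKM, and CD14 was lower (-2.18). Of the 3 tested fibroblast genes 1 was higher and 2 lower, with COL1A2 at 131 ± 3.87 FPKM. The 2 tested endothelial genes were lower. With siEGFR 5 epithelial genes and CD14 fell and the 3 tested fibroblast genes rose, against 3.19% of all loci lower and 2.27% higher.

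EREG, AREG and BTC lie next to each other on chromosome 4 of GRCh38.p14 (RefSeq), with EPGN, another ligand gene of the family, as the next protein-coding gene on the EREG side. TGFA and ADAM17 lie on chromosome 2, HBEGF on chromosome 5 and ADAM10 on chromosome 15. RefSeq promoters were at hand for 7 of the 8 genes, and the 250 bases before the annotated start are shown for the 3 ligands that fell after the EGFR knockdown and for HBEGF, which did not pass there. They run 5′ to 3′ on the gene's strand, at chr4:74444886-74445135 (AREG, + strand), chr4:74364895-74365144 (EREG, + strand), chr2:70553827-70554076 (TGFA, - strand, the more distal of 2 annotated starts) and chr5:140346604-140346853 (HBEGF, - strand). Capitals mark matches, on either strand, to the motifs searched.
AREG: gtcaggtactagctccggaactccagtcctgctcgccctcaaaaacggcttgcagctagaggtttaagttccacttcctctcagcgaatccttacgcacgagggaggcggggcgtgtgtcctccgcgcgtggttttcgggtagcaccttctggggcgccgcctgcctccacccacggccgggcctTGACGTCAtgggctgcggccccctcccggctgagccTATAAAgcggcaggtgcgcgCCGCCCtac
EREG: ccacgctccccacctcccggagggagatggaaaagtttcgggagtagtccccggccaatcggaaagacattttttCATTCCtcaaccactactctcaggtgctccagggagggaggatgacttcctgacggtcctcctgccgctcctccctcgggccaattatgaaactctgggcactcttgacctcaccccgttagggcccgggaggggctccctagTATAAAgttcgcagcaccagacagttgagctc
TGFA: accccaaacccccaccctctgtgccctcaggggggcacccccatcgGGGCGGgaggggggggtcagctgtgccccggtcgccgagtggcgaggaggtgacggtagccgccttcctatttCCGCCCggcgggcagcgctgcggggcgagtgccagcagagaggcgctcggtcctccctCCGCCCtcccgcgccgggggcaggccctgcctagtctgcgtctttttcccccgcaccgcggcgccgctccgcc
HBEGF: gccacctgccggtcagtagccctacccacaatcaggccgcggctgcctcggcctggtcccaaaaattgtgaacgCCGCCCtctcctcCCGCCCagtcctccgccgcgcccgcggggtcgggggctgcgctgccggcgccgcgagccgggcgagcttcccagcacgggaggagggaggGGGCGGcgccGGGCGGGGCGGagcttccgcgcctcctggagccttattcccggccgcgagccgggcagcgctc
The 7 motifs searched were AP-1 (TGANTCA), CRE (TGACGTCA), ETS (CCGGAAG), SP1 (GGGCGG), TEAD (GGAATG), the TATA box (TATAAA) and the CArG box. AREG held a CRE, the site bound by CREB, starting 65 bases before its start, which 1.65% of 35114 promoters of the same length hold. AREG and EREG each held a TATA box, starting 29 and 32 bases before the start, against 10.7% of promoters. EREG also held a TEAD match (11.9% of promoters). HBEGF held 5 SP1 matches, of which 2 overlap, TGFA held 3 and AREG 1, and 42.6% of promoters hold at least 1. The 250 bases before the other TGFA start held no match to any of the 7 motifs. No AP-1, ETS or CArG match was found in the 4 stretches shown, while 6.57%, 8.52% and 1.16% of promoters hold one. These are letter matches, and no binding was measured.

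**Figure D1:**
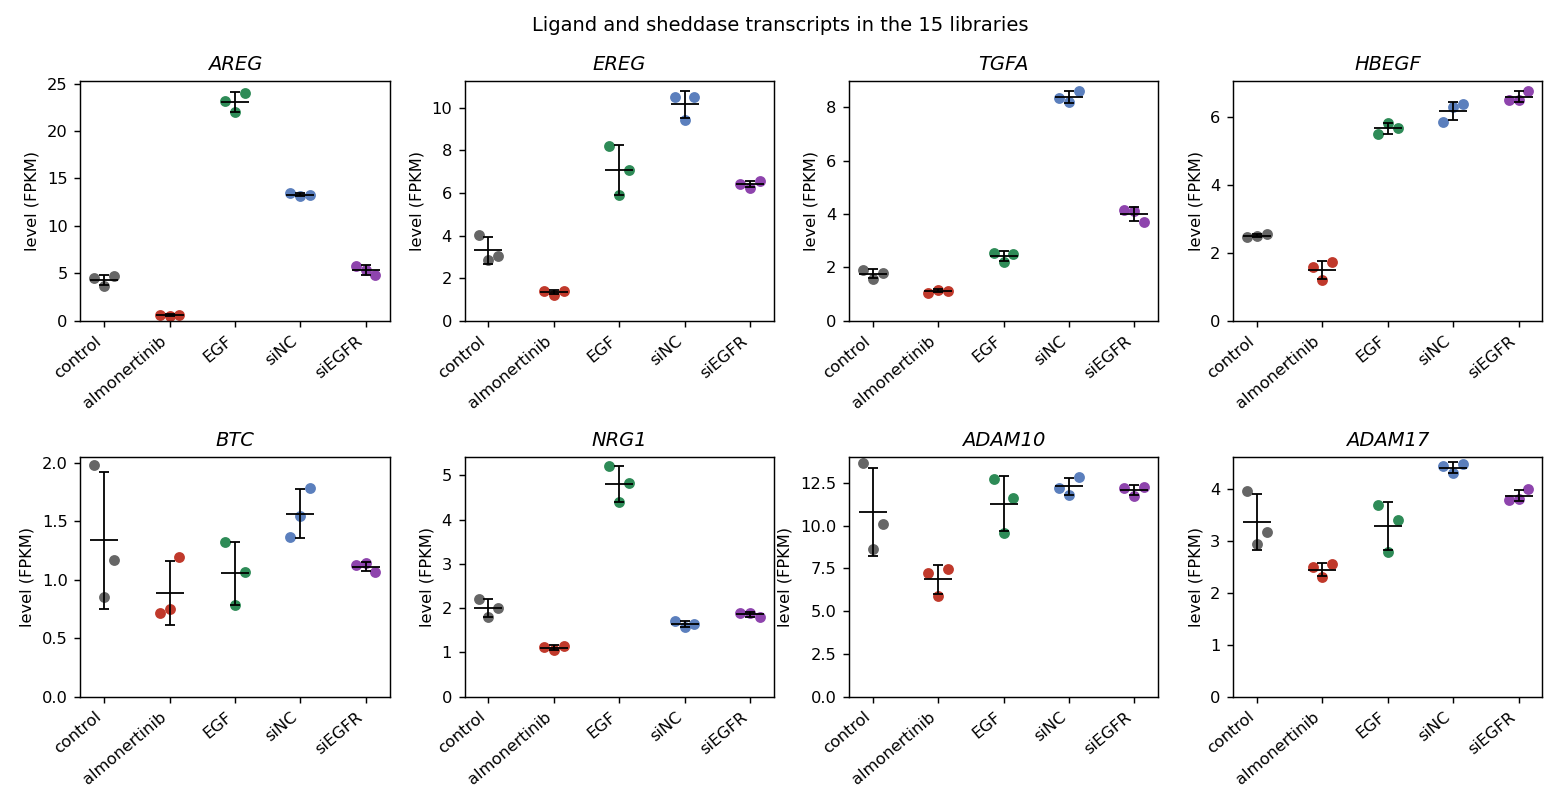
Level (FPKM, linear axis from 0) of each transcript in the 15 libraries, 1 point per library in replicate order, with the group mean and SD (n = 3) in black. AREG spans from 0.549 FPKM with almonertinib to 24.0 FPKM with EGF, while the groups of BTC overlap widely.

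With almonertinib 7 of the 8 transcripts were lower than in control and none was higher. Across all tested loci 18.0% were lower and 12.1% higher in this comparison (higher calls were 40.2% of all calls, or 22.8% with TPM and 53.5% with median-ratio scaling), and the median change was -0.50 over the 8 transcripts and -0.06 over all loci. EGF raised 5 of 8, namely AREG, EREG, TGFA, HBEGF and NRG1, and lowered none, against 22.0% of all loci higher and 27.3% lower (median change 0.61 against -0.04). After the EGFR siRNA 3 of 8 were lower than with the control siRNA, AREG, EREG and TGFA, and none was higher, against 3.19% and 2.27% of all loci (median -0.22 against 0.01). The control siRNA itself went with large differences: 5 of 8 were higher in siNC than in control (AREG, EREG, TGFA, HBEGF and ADAM17). NRG1 was lower, beside 34.4% of loci higher and 31.6% lower. Almonertinib and EGF are compared with the same 3 control libraries, and so is siNC, so these comparisons are not independent of each other.

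**Figure D2:**
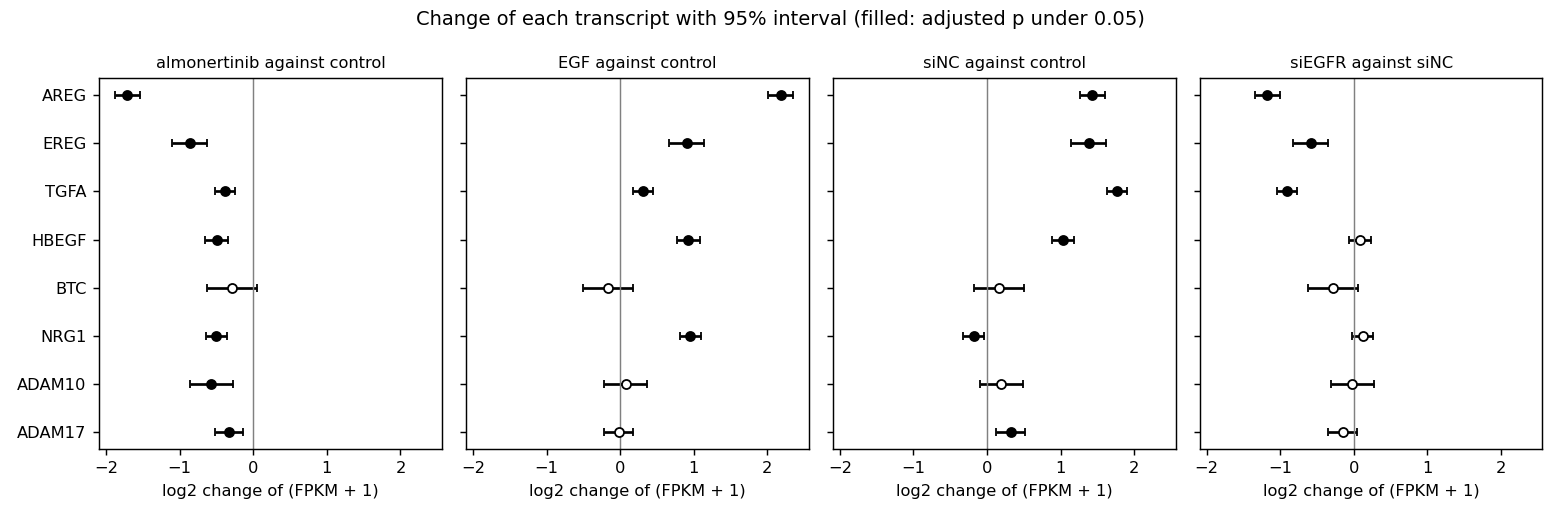
Change of log2(FPKM + 1) of each transcript in 4 comparisons, with the 95% interval from limma and filled points for adjusted p under 0.05. AREG moves furthest with almonertinib, EGF and siEGFR, TGFA with siNC, and BTC stays unfilled throughout.

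AREG encodes amphiregulin, an EGFR ligand of epithelia and of many lung cancers. It was at 4.47, 3.72 and 4.77 FPKM in control 1, 2 and 3 and at 0.665, 0.549 and 0.635 FPKM with almonertinib, the latter from only 20 to 22 reads per library. With EGF it reached 23.2, 22.0 and 24.0 FPKM. The siNC libraries were at 13.5, 13.1 and 13.3 FPKM and the siEGFR libraries at 5.81, 5.40 and 4.78 FPKM. The order was almonertinib, control, siEGFR, siNC and EGF, and no 2 of the 5 groups overlapped. For this and the other transcripts, the share of all loci with groups apart in this way was not computed. With the drug 14.3% of the control level was left (-1.71 ± 0.08, adjusted p = 4.66e-08), and on log2(FPKM + 0.1) the change was -2.62. EGF brought it to 534% of control (2.18 ± 0.08, adjusted p = 3.77e-10). The knockdown left 40.1% of the siNC level (-1.18 ± 0.08, adjusted p = 1.58e-06), which was still 123% of control. The submitters' processing notes name hg19, an assembly that holds a second, near-identical copy of AREG, so its absolute level is uncertain, and the share of reads lost or split was not tested.

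EREG encodes epiregulin, a ligand that often accompanies AREG in tumours. Its control libraries were at 4.04, 2.87 and 3.02 FPKM and its almonertinib libraries at 1.42, 1.23 and 1.40 FPKM. With EGF it was at 8.22, 5.90 and 7.10 FPKM, with siNC at 10.5, 9.44 and 10.5 and with siEGFR at 6.42, 6.24 and 6.54. EGF and siEGFR overlapped, and every other pair of groups was apart. It fell to 40.7% of control with almonertinib (-0.87 ± 0.11, adjusted p = 0.000125) and rose to 214% with EGF (0.90 ± 0.11, adjusted p = 1.63e-05). The siNC level was 307% of control (1.38 ± 0.11, adjusted p = 1.52e-07), and it was lower with EGF than in siNC (-0.47 ± 0.11, adjusted p = 0.00286), the reverse of AREG (0.75 ± 0.08, adjusted p = 4.18e-06). The knockdown left 63.1% of the siNC level (-0.59 ± 0.11, adjusted p = 0.00590).

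TGFA encodes transforming growth factor alpha, an EGFR ligand that many carcinomas make for themselves. It was low in the untreated and treated cultures without siRNA, with 1.91, 1.57 and 1.81 FPKM in control, 1.06, 1.17 and 1.12 with almonertinib and 2.56, 2.21 and 2.49 with EGF. In siNC it stood at 8.35, 8.19 and 8.61 FPKM and in siEGFR at 4.17, 4.11 and 3.71 FPKM. No 2 of the 5 groups overlapped, and both siRNA groups lay above all others. It fell to 63.4% of control with almonertinib (-0.38 ± 0.06, adjusted p = 0.000930, and -0.61 on log2(FPKM + 0.1)), although with only the control and almonertinib libraries in the fit adjusted p was 0.0654. EGF took it to 137% of control (0.31 ± 0.06, adjusted p = 0.00142), but siNC to 476% (1.77 ± 0.06, adjusted p = 9.25e-11). EGF against siNC, in which the control cancels, was -1.46 ± 0.06 (adjusted p = 1.33e-09). The knockdown left 47.7% of the siNC level (-0.91 ± 0.06, adjusted p = 2.99e-06).

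HBEGF encodes heparin-binding EGF-like growth factor, an early-response gene in many cell types. Control was at 2.47, 2.50 and 2.56 FPKM, almonertinib at 1.58, 1.19 and 1.73 and EGF at 5.51, 5.84 and 5.67. The siNC libraries were at 5.86, 6.31 and 6.38 FPKM and the siEGFR libraries at 6.50, 6.52 and 6.79. It thus fell to 59.7% of control with the drug (-0.50 ± 0.07, adjusted p = 0.000306) and rose to 226% with EGF (0.93 ± 0.07, adjusted p = 2.72e-07). As for AREG and TGFA, no 2 of the 5 groups overlapped. The siEGFR libraries thus did not overlap with siNC and lay above them, but the difference did not pass (0.08 ± 0.07, 95% interval -0.07 to 0.24, adjusted p = 0.658). A fall as large as that of EREG, AREG or TGFA lies outside this interval. EGF and siNC also did not differ beyond the test (-0.11 ± 0.07, adjusted p = 0.241). The siNC level, against which siEGFR is set, was itself 246% of control (1.03 ± 0.07, adjusted p = 3.74e-08).

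NRG1 encodes neuregulin 1, a ligand of ERBB3 and ERBB4 and not of EGFR. It was at 2.21, 1.79 and 1.995 FPKM in control, at 1.13, 1.04 and 1.15 with almonertinib and at 5.21, 4.39 and 4.82 with EGF. The siNC and siEGFR libraries were at 1.70, 1.57 and 1.63 and at 1.88, 1.90 and 1.80 FPKM. The EGF libraries stood above all others, and control and siEGFR overlapped. It fell to 55.5% of control with the drug (-0.51 ± 0.07, adjusted p = 0.000163, and -0.79 on log2(FPKM + 0.1)) and rose to 241% with EGF (0.95 ± 0.07, adjusted p = 1.09e-07). EGF against siNC was 1.14 ± 0.07 (adjusted p = 1.88e-08), so that NRG1 was higher with EGF where TGFA and EREG were higher in siNC. siNC was at 81.9% of control (-0.18 ± 0.07, adjusted p = 0.0268), a call that ended under 7 of 24 alternatives, with adjusted p = 0.0884 after TPM scaling and 0.0969 without control 1. It ended likewise without control 3 (0.0592), siNC 2 (0.0808) or siNC 3 (0.0630), without control 1 and almonertinib 3 (0.0899) and with only the 2 groups in the fit (0.0810). The knockdown did not pass (0.12 ± 0.07, 95% interval -0.03 to 0.26, adjusted p = 0.421).

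BTC encodes betacellulin and had the lowest mean of the 6 ligands in every group but almonertinib, where AREG was lower. Control was at 1.98, 0.852 and 1.17 FPKM, almonertinib at 0.711, 0.747 and 1.20, EGF at 1.32, 0.781 and 1.07, siNC at 1.37, 1.55 and 1.78 and siEGFR at 1.12, 1.14 and 1.06. Only 3 of 10 pairs of groups were apart, and neighbouring groups in the order of means all overlapped. BTC passed in none of the 8 comparisons. Its change with almonertinib was -0.29 ± 0.16 (95% interval -0.63 to 0.05, adjusted p = 0.175), and without control 2, its lowest control library, the adjusted p was 0.0393. Changes of the size seen in TGFA or NRG1 with the drug lie inside this interval. The siEGFR libraries lay below the siNC libraries, at 70.9% of their mean (-0.28 ± 0.16, adjusted p = 0.416), and with only these 2 groups in the fit adjusted p was 0.0341. In siNC against control (0.16 ± 0.16, adjusted p = 0.386) it passed without control 1 (0.0326) and without control 1 and almonertinib 3 (0.0148). In EGF against siNC (-0.32 ± 0.16, adjusted p = 0.107) it passed with only these 2 groups (0.0475), without control 1 (0.0365) and without control 1 and almonertinib 3 (0.0161).

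ADAM10 and ADAM17, the sheddases, were lower with almonertinib and passed neither in EGF against control nor after the knockdown, and ADAM17 was higher in siNC than in control. ADAM10 was at 13.6, 8.64 and 10.1 FPKM in control and at 7.22, 5.86 and 7.47 with almonertinib, 63.5% of control (-0.57 ± 0.14, adjusted p = 0.00819). ADAM17 was at 3.96, 2.93 and 3.18 FPKM in control and at 2.49, 2.30 and 2.55 with almonertinib, 72.9% of control (-0.33 ± 0.09, adjusted p = 0.0154). The drug libraries lay below every control library for both. With only the 2 groups in the fit neither passed (adjusted p = 0.0963 and 0.126), and ADAM17 did not pass without control 1 (0.0605), without almonertinib 2 (0.0604) or without control 1 and almonertinib 3 (0.0518).

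Within groups both proteases varied along with MALAT1, an abundant nuclear transcript. Control 1 had the most ADAM10 and ADAM17 of its group, and its MALAT1 level was 99.4 FPKM, against 48.5 and 70.0 in control 2 and 3. In all 5 groups the 3 libraries had the same order for ADAM10 as for MALAT1, and in 4 of 5 for ADAM17 and EREG. In control, almonertinib and EGF the ADAM10 and ADAM17 orders were the reverse of that of GAPDH, at 1075, 1563 and 1305 FPKM in the control libraries. AREG had the order of MALAT1 in 0 of 5 groups. Library 2 was the lowest of its group for ADAM10 and for EREG in all 5 groups. The part of this variation in the drug result was not tested.

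With EGF ADAM10 was at 12.7, 9.54 and 11.6 FPKM (0.07 ± 0.14, adjusted p = 0.682) and ADAM17 at 3.69, 2.78 and 3.39 (-0.02 ± 0.09, adjusted p = 0.855). In siNC they were at 12.2, 11.8 and 12.8 and at 4.44, 4.30 and 4.49 FPKM, and in siEGFR at 12.2, 11.7 and 12.3 and at 3.79, 3.81 and 3.99. ADAM17 was at 131% of control in siNC (0.32 ± 0.09, adjusted p = 0.00701) and was lower with EGF than in siNC (-0.34 ± 0.09, adjusted p = 0.00682). Knockdown against siNC gave -0.02 ± 0.14 for ADAM10 (95% interval -0.32 to 0.27) and -0.15 ± 0.09 for ADAM17 (95% interval -0.35 to 0.04, adjusted p = 0.442). The 3 siEGFR libraries lay below the 3 siNC libraries for ADAM17, and with only siNC and siEGFR in the fit adjusted p was 0.0265. For ADAM10 in siNC against control (0.19 ± 0.14, adjusted p = 0.225), the fit without control 1 gave 0.36 with adjusted p = 0.0128.

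The summed FPKM of the 6 ligands was 15.2 ± 1.89 in control, 6.57 ± 0.650 with almonertinib, 44.1 ± 2.60 with EGF, 41.2 ± 1.02 in siNC and 25.3 ± 0.609 in siEGFR. EGF and siNC thus had similar summed FPKM, with the same 6 ligands in different proportions. AREG was 52.4% ± 1.73 of the sum with EGF, 32.3% ± 0.673 in siNC, 28.4% ± 2.49 in control, 21.0% ± 1.54 in siEGFR and 9.39% ± 0.693 with almonertinib. TGFA was 20.3% ± 0.0975 in siNC but 5.48% ± 0.0995 with EGF, and NRG1 3.97% ± 0.135 and 10.9% ± 0.375. In siEGFR HBEGF held the highest share, 26.1% ± 1.24, ahead of EREG at 25.3% ± 1.03, and the ranges of these 2 overlapped. With almonertinib HBEGF was at 22.7% ± 2.26 and EREG at 20.6% ± 1.14. These sums and shares depend on the gene models: the recovered lengths were 1642 bases for AREG, 2990 for HBEGF and 21398 for NRG1. By reads instead of FPKM, NRG1 held 48.4% ± 0.876 of the ligand reads in control and AREG 8.04% ± 0.819.

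**Figure D3:**
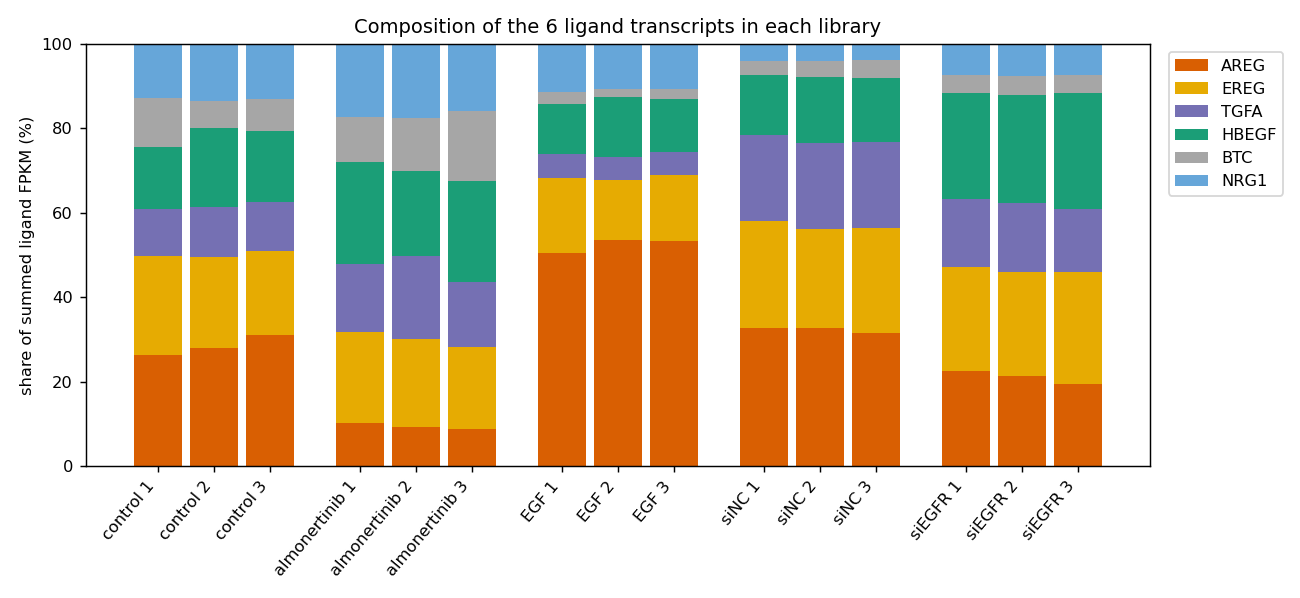
Share of each ligand (percent of the summed FPKM of the 6) in each library, stacked to 100. AREG takes 50.4% to 53.5% of the sum in the EGF libraries and 8.78% to 10.1% in the almonertinib libraries, and TGFA is widest in siNC.

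Whether the drug and the knockdown act unequally on a transcript was tested as the difference of both changes, which share no control libraries. Of the 8 transcripts, AREG, HBEGF and NRG1 fell more with almonertinib and TGFA fell more with siEGFR, against 7.71% of all loci below 0 and 5.95% above (higher calls were 43.5% of all calls, or 25.5% with TPM and 57.8% with median-ratio scaling). For HBEGF the drug left 59.7% of control while siEGFR was at 107% of siNC (difference -0.58 ± 0.10, adjusted p = 0.00244). For NRG1 the drug left 55.5% and siEGFR was at 114% (-0.62 ± 0.09, adjusted p = 0.000999). AREG was at 14.3% and 40.1% (-0.54 ± 0.11, adjusted p = 0.00668), and on log2(FPKM + 0.1) that difference was -1.31, with NRG1 at -0.97. TGFA went the other way, at 63.4% with the drug and 47.7% after knockdown (0.53 ± 0.09, adjusted p = 0.00228), although TPM scaling gave adjusted p = 0.0557 and limma-voom on recovered reads 0.0543. EREG did not pass (-0.28 ± 0.15, 95% interval -0.61 to 0.05, adjusted p = 0.241, and -0.57 on log2(FPKM + 0.1)). ADAM10 did not pass either (-0.55 ± 0.19, adjusted p = 0.0777), though it did with the replicate number as a block (0.0211) and without control 2 (0.0228). The drug was given to cells without siRNA, whose EGFR transcript was 24.4 ± 3.17 FPKM, and siEGFR was set against siNC cells at 49.6 ± 0.218 FPKM. The starting level and the agent cannot be told apart here. BTC (-0.01 ± 0.22) and ADAM17 (-0.18 ± 0.13) did not pass.

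**Figure D4:**
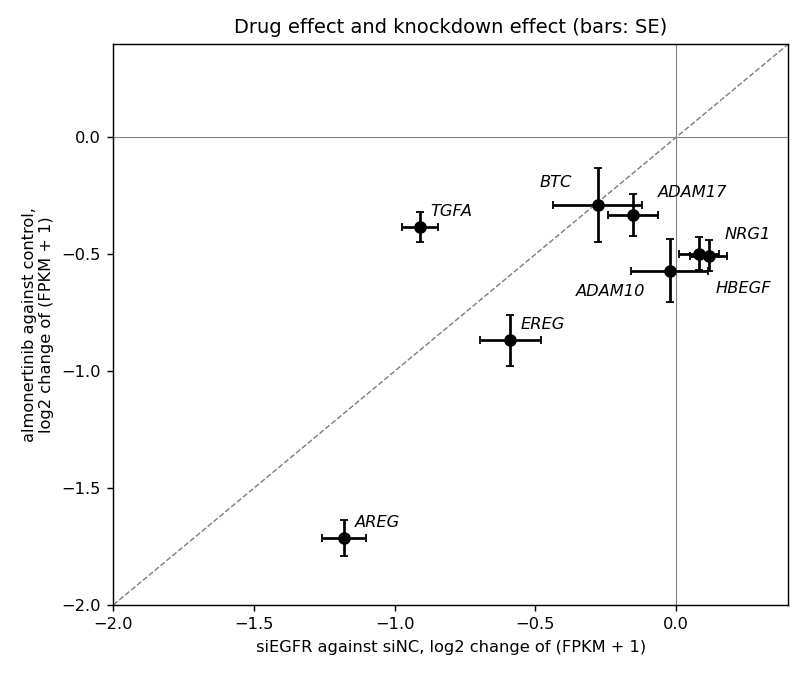
Change of each transcript with almonertinib against control (vertical) and with siEGFR against siNC (horizontal), both as log2(FPKM + 1) with bars for the SE, and a dashed line where both are equal. TGFA lies above the line and all others lie below it, BTC only just (-0.01). The difference passed for TGFA, AREG, HBEGF and NRG1.

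EGF and almonertinib set against each other gave 7 of 8 transcripts lower with the drug (32.6% of all loci were lower and 30.0% higher), from AREG at -3.90 ± 0.08 (adjusted p = 9.19e-13) to ADAM17 at -0.31 ± 0.09 (adjusted p = 0.00901). NRG1, HBEGF and EREG were between, at -1.46, -1.42 and -1.77. The EGF change minus the siEGFR change was above 0 for AREG, EREG, TGFA, HBEGF and NRG1 (17.0% of all loci were above 0 and 21.3% below), with TGFA at 1.22 ± 0.09 and NRG1 at 0.84 ± 0.09. In EGF against siNC 2 of 8 were higher (AREG and NRG1) and 3 lower (EREG, TGFA and ADAM17), against 20.0% and 28.1% of loci.

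Of the 5 other ligand genes of the family (EGF, EPGN, NRG2, NRG3 and NRG4), 0 passed the filter on low values. The gene EGF itself reached at most 1.05 FPKM, and the rest stayed under 0.64 FPKM. Of 4 receptors, EGFR and ERBB2 were tested. EGFR fell with almonertinib from 24.4 ± 3.17 to 16.7 ± 2.18 FPKM (-0.52 ± 0.11, adjusted p = 0.00521, lost with only the 2 groups in the fit) and was higher in siNC than in control (1.00 ± 0.11, adjusted p = 4.9e-06). ERBB2, the partner without a ligand of its own, fell with EGF from 11.1 ± 1.36 to 7.17 ± 0.430 FPKM (-0.56 ± 0.08, adjusted p = 6.08e-05). The shares of all loci were 18.0% lower with almonertinib, 34.4% higher in siNC and 27.3% lower with EGF. ERBB3 and ERBB4, which bind NRG1, reached at most 0.94 and 0.05 FPKM, below NRG1 in each group.

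ADAM8, a further membrane-anchored protease, rose with EGF from 6.81 ± 0.852 to 21.4 ± 1.68 FPKM (1.52 ± 0.10, adjusted p = 9.73e-08), fell with almonertinib (-0.42, adjusted p = 0.00968, lost after median-ratio scaling and with only the 2 groups in the fit) and was lower in siNC than in control (-0.60). Of its list of 7 such ADAM genes 3 were tested. With almonertinib 2 fell, against 18.0% of all loci, ADAM8 and ADAM9, the latter not with only the 2 groups in the fit. With EGF 1 rose, against 22.0% of all loci, and in siNC 2 were lower, against 31.6%. After siEGFR 1 fell, ADAM8 (-0.43, adjusted p = 0.0280), against 3.19% of all loci. That call was lost after median-ratio scaling and without any of siNC 1, 2 or 3 or siEGFR 1 or 2. Of 9 partners of ADAM10 and ADAM17, among them the iRhoms and the tetraspanins that carry ADAM10, 8 were tested. With EGF 3 of these rose, led by TSPAN5 (0.48 ± 0.08, adjusted p = 0.000261), and 2 fell, against 22.0% and 27.3% of all loci. Of those that fell, TSPAN10 (adjusted p = 0.0179) did not pass with only the 2 groups in the fit or without control 3, EGF 1 or EGF 3, and RHBDF1 (adjusted p = 0.0431) did not pass under 14 of 24 alternatives, no filter and median-ratio scaling among them. In siNC 2 were higher and 2 lower than in control, against 34.4% and 31.6% of all loci. With almonertinib 2 fell, against 18.0% of all loci, TSPAN17 (-0.33 ± 0.05) and TSPAN14 (-0.23 ± 0.05), neither with only the 2 groups in the fit, and after siEGFR 0 of 8 passed.

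Of 4 tested metalloprotease inhibitors, TIMP4 fell with almonertinib from 18.4 ± 2.52 to 11.4 ± 1.48 FPKM (-0.65 ± 0.10) and rose to 34.1 ± 1.84 FPKM with EGF (0.87 ± 0.10). TIMP1 rose (0.37 ± 0.06) and TIMP2 fell (-0.76 ± 0.07) with EGF, and after siEGFR TIMP1 was lower (-0.42 ± 0.06, adjusted p = 0.000802) and TIMP2 higher (0.31 ± 0.07, adjusted p = 0.0245, lost without any single siNC or siEGFR library). In siNC both were lower than in control, with TIMP2 at -1.56, against 31.6% of all loci lower. The shares of all loci were 18.0% lower with almonertinib and 22.0% higher and 27.3% lower with EGF. After siEGFR they were 2.27% higher and 3.19% lower. TIMP3, the inhibitor known to act on ADAM17, reached at most 0.33 FPKM and was not tested. TIMP1 and TIMP4 lie within introns of synapsin genes on the other strand, and whether the counting used strand is not given in the sources used here.

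Of 5 surface partners of the ligands 4 rose with EGF, against 22.0% of all loci, with SDC1, a heparan sulfate proteoglycan, from 27.4 ± 1.54 to 52.8 ± 1.14 FPKM (0.92 ± 0.05, adjusted p = 1.17e-08), CD9, a tetraspanin that binds the HBEGF precursor, at 0.45 ± 0.06 and GPC1 at 0.45 ± 0.10, while SDC4 fell (-0.20 ± 0.04). With almonertinib 3 of 5 fell, against 18.0% of all loci, led by SDC1 (-0.53 ± 0.05, adjusted p = 1.4e-05), SDC4 and CD44 not after median-ratio scaling, CD9 and GPC1 did not pass, and after siEGFR CD9 fell (-0.35 ± 0.06, adjusted p = 0.00507). Falls over all loci were 27.3% with EGF and 3.19% after siEGFR. In siNC 2 of 5 were higher (SDC1 and SDC4) and 2 lower (CD9 and CD44), against 34.4% and 31.6% of all loci. Of the convertases that mature ADAM proteases FURIN and PCSK7 were tested, and 0 of 2 passed in these 4 comparisons. Of BACE1, which cuts NRG1, and its relative BACE2 only BACE2 passed in the same 4 comparisons. It was lower in siNC (-0.80 ± 0.06), against 31.6% of all loci. In EGF against siNC BACE2 was higher and BACE1 lower (6.53 against 7.69 FPKM), beside 20.0% and 28.1% of all loci. Of the 3 decay factors of the ZFP36 family, which bind AU-rich transcripts, ZFP36L1 fell with EGF (-0.40 ± 0.06), ZFP36 was lower in siNC (-0.62 ± 0.08) and ZFP36L2 fell with almonertinib (-0.30 ± 0.09, adjusted p = 0.0319). This last call ended with no filter, after median-ratio scaling, with only the 2 groups in the fit and without control 2, control 3 or almonertinib 3. Each of these falls is 1 of 3 tested decay factors, against 27.3% (EGF), 31.6% (siNC) and 18.0% (almonertinib) of all loci lower.

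The genes whose log2(FPKM + 1) followed each ligand most closely over the 15 libraries were taken from 6526 tested genes with a mean of at least 5 FPKM, leaving out clones and pseudogenes. The libraries share their groups, so these correlations mostly compare 5 group levels and carry no test. For AREG they were HRH1, a histamine receptor, DUSP6, an ERK phosphatase, and ANGPTL4, with Pearson r of 0.991, 0.990 and 0.979. For EREG they were ITGA6, an integrin, the receptor MET and KCTD10 (0.991, 0.990 and 0.990), and for TGFA they included LRATD2 and CDC42EP4 (0.980 and 0.976). HBEGF was followed by PEA15, SELENOT and ICMT (0.995, 0.994 and 0.993). The genes closest to NRG1 included the kinase MAP4K4 and ACAT2 (0.985 and 0.983). BTC had the lowest values of the 6 ligands, with TMEM30A and PBRM1 at 0.917 and 0.912. Among the 8 transcripts, AREG and EREG correlated at 0.882, HBEGF and EREG at 0.940, ADAM10 and ADAM17 at 0.925, and TGFA and NRG1 at 0.01.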

How the data were processed

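The authors deposited FPKM for 61248 loci in 15 libraries, and 60463 loci were matched to symbols. Per the submitters' processing notes, HISAT2, featureCounts, DESeq2 and hg19 were used, with roles and versions not given in the sources used here. Of 60605 Ensembl IDs, 58337 are in GENCODE 29, which is on another build, so positions come only from RefSeq promoters on GRCh38.p14. Per the labels, polyadenylated RNA was selected with oligo(dT). Whole reads were recovered from the steps of the deposited FPKM, within 0.01 reads, for all 34251 loci with values above 0 in at least 3 libraries.

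Loci with at least 1 FPKM in at least 3 libraries were kept, and log2(FPKM + 1) was fitted with limma 3.58.1 (R 4.3.3, trend, robust, 10 residual degrees of freedom), 8 comparisons, two-sided. The fit and the recovery were tested on simulated data. Python 3.11.15, numpy 2.4.6, pandas 2.3.3, matplotlib 3.10.9 and the R package data.table (version 1.17.8) did the rest. Transcripts, lists and tests were chosen with earlier results of these data known. Named are the 8 members, up to 3 called genes with the largest change per list and comparison, and 3 genes per ligand by correlation, some of which are not reported here; other list genes were named after their values were seen. Alternatives changed pseudocount, filter, scaling, libraries in the fit, moderation, replicate block and model (limma-voom on reads), or left out each library. A fit without control 1 and almonertinib 3 was added after seeing the data. Lists carry no set test.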

Additional observations from a re-analysis of the deposited data

How the results depend on the processing

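Over 24 alternatives, 1492 of 1536 recomputed changes of the 8 transcripts kept their direction and their side of the threshold, 15 were no longer past it, 12 newly passed and 17 changed sign, all of transcripts and comparisons that did not pass. In the fit of only the groups compared, calls over all loci were 857 in place of 4517 for almonertinib and 3080 in place of 819 for siEGFR, and 4 in place of 7 and 5 in place of 3 of the 8 transcripts were called. Without control 1 and almonertinib 3, siEGFR calls were 1640. Leaving out 1 library gave 2853 to 5611 calls for almonertinib, 441 to 1076 for siEGFR (441 to 525 without any siNC or siEGFR library) and 1338 to 3029 (2049 with all) for almonertinib minus siEGFR; the lowest were without almonertinib 2, without siNC 1 or siEGFR 3 and without siEGFR 3, and the cause was not tested.

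Changes of sign with EGF against control were 0.0087 after median-ratio scaling and 0.075 without control 1 and almonertinib 3 for ADAM17 (-0.093 to 0.075 leaving out 1 library), and 0.027 without control 1 and almonertinib 3 for BTC (-0.32 to 0.027). ADAM10 ran there from -0.060 to 0.24, and in siEGFR against siNC from -0.049 to 0.0062. Almonertinib minus siEGFR became 0.041 after median-ratio scaling and 0.064 without control 1 and almonertinib 3 for BTC (-0.16 to 0.18). EGF minus siEGFR ran from -0.037 to 0.31 for BTC and from -0.037 to 0.26 for ADAM10.

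The labels number the replicates alike in each group. Correlations of the deviations of same-numbered libraries ran from -0.17 to 0.60 and exceeded 0.1 in 10 of 30 pairs, against 10 of 60 pairs with different numbers, and 6 of 15 libraries correlated best with one of their own number. The number 2 libraries of control, almonertinib, EGF and siNC correlated at 0.17 to 0.60. As not every pair exceeded 0.1, the numbers were not taken to pair the libraries. With the replicate number as a block 7, 5, 6 and 3 transcripts were called for almonertinib, EGF, siNC and siEGFR, with 5614, 8040, 10352 and 1036 calls over all loci. TPM and median-ratio scaling moved the median change of all loci with almonertinib from -0.06 to -0.14 and 0.01, and the share of higher calls from 40.2% to 22.8% and 53.5%. Scaling leaves the ligand shares as they are. BTC had 38 to 165 reads per library and AREG 20 to 22 with almonertinib.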

Other observations

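The gene neighbours of AREG and EREG on chromosome 4 gave values that belong to no comparison of the report and were picked for position after the data were seen. EPGN, next to EREG, had group means from 0.207 FPKM with EGF to 0.446 FPKM in siNC, so it was lowest in the group where AREG was highest. MTHFD2L, a mitochondrial folate enzyme beyond EPGN, had group means from 0.800 FPKM in siEGFR to 1.80 FPKM with EGF. CXCL2, a chemokine on the far side of MTHFD2L, had 4.50 FPKM in siNC and 2.49 FPKM in siEGFR, and 2.51 FPKM with EGF against 3.54 FPKM in control. PARM1, on the BTC side, stayed at or under 0.199 FPKM in every library.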
